A study of Homo sapiens with 6 samples.

Results

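The genes described here are the 9 elongation, termination and recycling factors of cytosolic protein synthesis that were chosen by name, *EEF1A1*, *EEF1B2*, *EEF1D*, *EEF1G*, *EEF2*, *EIF5A*, *ETF1*, *GSPT1* and *ABCE1*, of 11227 named genes in the ribosome profiling tables. All 9 were listed in each of the 3 tables and all 9 passed the minimum on row depth. Ribosome-protected fragments had been sequenced from 3 conditions of the established human melanoma line CHL-1, with 2 libraries each. The first is CHL-1 in which the small nucleolar RNA genes SNORD50A/B were edited by CRISPR; RNAs of this box C/D class guide methylation of other RNAs. In the second, CHL-1 received AZC at 10 mM, an analog of proline, together with the proteasome inhibitor MG132 at 20 µM for 20 minutes, which the labels describe as ribosomal stress. The third is parental CHL-1 left untreated. Whether the edited cells are a clone or a pool was not given in the sources used here. In each condition 1 of the 2 libraries is labelled as having had ribosomal RNA removed, and all lysates contained cycloheximide, which holds elongating ribosomes in place. Each condition is deposited as 1 table with no column per library, so the spread between libraries is unknown, no p-value is given, and a difference is described by its size only. No RNA abundance was measured beside the footprints, so more messenger and more ribosomes per messenger cannot be told apart.

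Elongation starts when eEF1A, encoded by *EEF1A1*, brings an aminoacyl-tRNA to the ribosome as a complex with GTP. The eEF1B complex, made of the products of *EEF1B2*, *EEF1D* and *EEF1G*, then exchanges GDP for GTP on eEF1A so that it can be used again. eEF2 moves the ribosome on by a codon, and eIF5A, the protein that carries hypusine, helps to form peptide bonds at poorly reacting sequences such as proline runs. At a stop codon eRF1 (*ETF1*) and its GTPase partner eRF3a (*GSPT1*) release the protein, and the ATPase ABCE1 then splits the ribosome into its subunits. Many messengers of the elongation machinery and of ribosomal proteins start with a 5′ terminal oligopyrimidine (TOP) tract, a C followed by pyrimidines, which ties their translation to growth signals.

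Which of these messengers carry a TOP tract was read from RefSeq transcription starts on GRCh38.p14, where a TOP start was taken as a C at the first base followed by at least 4 pyrimidines. *EEF1A1*, *EEF2* and 1 of the 2 starts of *EEF1B2* met it. *EEF1G*, *EIF5A* (6 starts), *ETF1* (2 starts), *GSPT1* (2 starts) and *ABCE1* did not, and *EEF1D* was not examined. So 3 of 8 genes (37.5%) had a TOP start, against 5.14% of 27305 genes, 74.6% of 63 cytosolic ribosomal protein genes and 23.7% of 38 initiation factor genes in the same source. The starts of *EEF1B2* (both) and *EEF1G* and of the 2 factors with most depth are shown because these are the genes the comparisons below turn on. Each line holds 10 bases before the start and the first 15 of the transcript, with the TOP tract in capitals.
EEF1A1, chr6:73521018-73521042, minus strand: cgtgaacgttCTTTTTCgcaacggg
EEF2, chr19:3985449-3985473, minus strand: cgtcagcgttCTCTTCCgccgtcgt
EEF1B2, TOP start, chr2:206159885-206159909, plus strand: ctcttcgggtCCTTTTTCCTCTCTT
EEF1B2, other start, chr2:206159599-206159623, plus strand: aagtggccccagcctcgaggccggg
EEF1G, chr11:62573877-62573901, minus strand: cgggcggcttactttgcggcagcgc
The tract at the TOP start of *EEF1B2* fills all the transcribed bases shown. The *EEF1G* transcript starts with an A and not a C, so it falls outside the definition, although 4 pyrimidines follow that A.

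The level of a gene is its coding depth per 1000000 of the table's coding depth, where depth is the read depth summed over bases. In units of 1000000 summed bases, coding depth came to 497.1 for the CRISPR, 286.9 for the AZC + MG132 and 405.6 for the parental table. Coding lengths were not used here, so levels are compared between tables and not between genes. Although its depth was the greatest, the CRISPR table was the most gapped: the median gene had depth in 69% of its 200 coding bins in CRISPR, 81.5% in AZC + MG132 and 90.5% in parental cells. Of 9 melanoma or melanocyte markers, 5 passed the minimum in CRISPR, 4 in AZC + MG132 and 3 in parental cells, with summed levels of 477.0, 459.3 and 484.7. *SOX10* made up most of that sum, whereas *MLANA* was at 0 and *TYR* and *TYRP1* were not listed in any of the 3 tables. No fibroblast or endothelial marker was listed. Of the epithelial markers *KRT18* alone was listed, at 11.8 in CRISPR, 19.2 in AZC + MG132 and 23.1 in parental cells, and of the blood markers *PTPRC* alone, at 2.66 in CRISPR cells.

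Together the 9 factors took 1.34% of all coding depth in the CRISPR table, 1.03% in the AZC + MG132 table and 1.12% in the parental table. *EEF1A1* alone took 0.879%, 0.674% and 0.720% in that order of tables. The 6 elongation factors took 1.299%, 0.996% and 1.08%, and the 3 termination and recycling factors 0.037%, 0.031% and 0.039%. The summed total of the members was thus lower in AZC + MG132 and higher in CRISPR than in parental cells, and *EEF1A1* set most of it. The termination and recycling factors taken alone were lower in CRISPR than in parental cells.

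**Figure D1:**
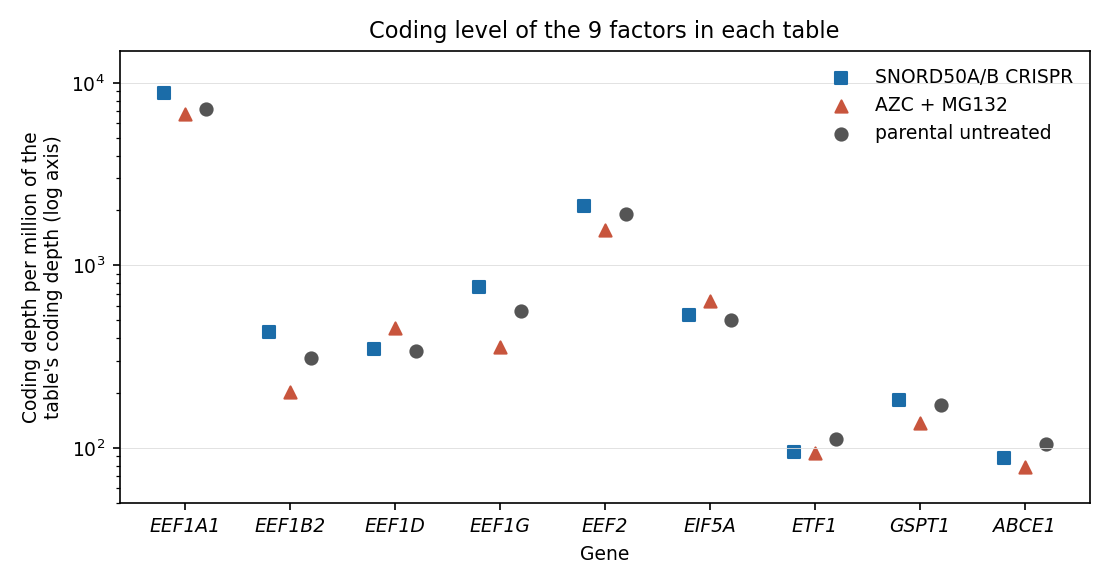
Coding level (depth per 1000000 of the table's coding depth, log axis) of each factor in the SNORD50A/B CRISPR, AZC + MG132 and parental tables, 1 point per table. *EEF1A1*, *EEF1B2*, *EEF1G*, *EEF2* and *GSPT1* are lowest in AZC + MG132 and highest in CRISPR, and *EEF1D* and *EIF5A* are highest in AZC + MG132.

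AZC + MG132 against parental cells asks how ribosomal stress alters ribosome occupancy. No member reached a 2-fold difference (0 of 9), against 4.15% of 7279 genes compared (1.33% higher and 2.82% lower in AZC + MG132). The level was lower in AZC + MG132 for 7 members and higher for 2, against 52.1% and 47.9% of all genes. The median log2 ratio of the members was -0.29 and that of all genes -0.02. The members ranged from -0.65 for *EEF1G* to 0.43 for *EEF1D*, so the ends of the range were both subunits of eEF1B.

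*EEF1A1* had a level of 6744 in AZC + MG132 and 7197 in parental cells, a log2 ratio of -0.09 that stayed between -0.14 and -0.06 under every setting tried. *EEF2* was at 1562 in AZC + MG132 cells against 1914 in parental cells (log2 ratio -0.29). Both are TOP messengers, yet their ratios differed: the median over 493 genes with a TOP start was -0.10 and over 5611 genes without it -0.01, and *EEF1A1* lay at the first of these and *EEF2* below it. The ratio of *EEF2* to *EEF1A1* depth was 0.232 in AZC + MG132 and 0.266 in parental cells.

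The 3 subunits of eEF1B did not move together. *EEF1B2*, a nucleotide exchange subunit, had a level of 203.1 in AZC + MG132 and 309.3 in parental cells (log2 ratio -0.61). *EEF1G*, the subunit that anchors the complex, had 359.1 in AZC + MG132 and 563.7 in parental cells (log2 ratio -0.65). Only 10.2% of genes compared had a lower ratio than *EEF1B2* and 9.04% a lower one than *EEF1G*. *EEF1D*, the other exchange subunit, went the other way, with 456.3 in AZC + MG132 and 339.7 in parental cells (log2 ratio 0.43), higher than 86.3% of genes. The depth of *EEF1D* relative to *EEF1B2* was therefore 2.25 in AZC + MG132 against 1.10 in parental cells, while that of *EEF1G* relative to *EEF1B2* was 1.77 against 1.82. These quotients are of depth that was not divided by length, so only their change between tables can be read. VARS1, the valine-tRNA ligase that associates with eEF1B, was at 182.2 in AZC + MG132 and 203.7 in parental cells (log2 ratio -0.16).

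*EIF5A* was the other member with more depth after AZC + MG132, at 634.5 against 500.4 in parental cells (log2 ratio 0.34, 0.29 to 0.43 over the settings). How far its reads can be told apart from those of *EIF5AL1*, an intronless copy with almost the same sequence, was not tested. That copy was itself listed at 547.2 in AZC + MG132 and 473.9 in parental cells. *EIF5A2*, the more distant paralog, was at 10.6 and 11.3. For *EEF1A1* the paralog *EEF1A2* was at 15.8 in AZC + MG132 and 18.1 in parental cells. Processed pseudogenes of *EEF1A1* and *EEF1B2* are known, and the sources used here do not say how reads with several matches were placed.

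The 3 termination and recycling factors all had less depth in AZC + MG132, with similar ratios. *ETF1* had a level of 93.3 in AZC + MG132 and 111.5 in parental cells (log2 ratio -0.26). *GSPT1* had 136.7 and 172.7 (log2 ratio -0.34), and *ABCE1* 78.4 and 104.8 (log2 ratio -0.42). Their sizes depended on the coding bins used, each taken relative to the table's depth in the same bins: the *ABCE1* ratio was -0.63 over the first 100 coding bins and -0.18 over the last 100, and that of *ETF1* -0.37 and -0.13. GSPT2, the paralog of *GSPT1*, stood at 24 in AZC + MG132 and 17.7 in parental cells.

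**Figure D2:**
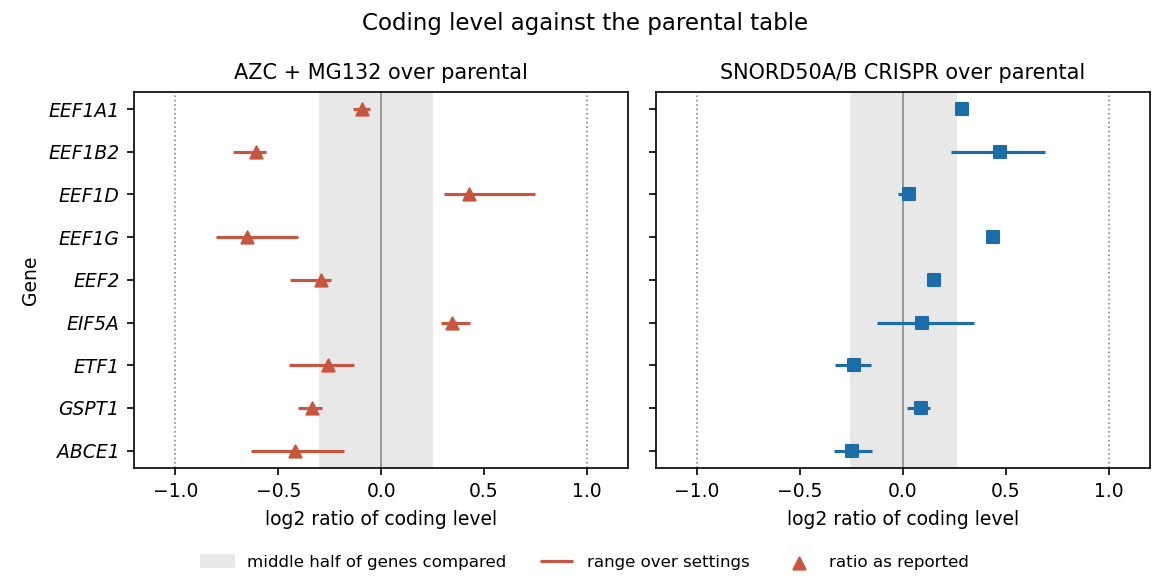
The log2 ratio of the coding level in AZC + MG132 over parental (left) and SNORD50A/B CRISPR over parental (right). Points are the values reported, lines span the 14 settings including the reported one, the grey band runs from the lower to the upper quartile of all genes compared and dotted lines mark 2-fold. On the left *EEF1B2*, *EEF1G*, *GSPT1* and *ABCE1* lie below the band and *EEF1D* and *EIF5A* above it. On the right *EEF1A1*, *EEF1B2* and *EEF1G* lie above it.

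SNORD50A/B CRISPR against parental cells asks how editing of the SNORD50A/B genes alters ribosome occupancy. Again no member reached 2-fold (0 of 9), against 3.17% of 7542 genes compared (1.34% higher and 1.83% lower in CRISPR cells). The level was higher in CRISPR cells for 7 members and lower for 2, against 50.6% and 49.4% of all genes. The median log2 ratio of the members was 0.09 and that of all genes 0.00. The members ranged from -0.24 for *ABCE1* to 0.47 for *EEF1B2*, a narrower range than in the AZC + MG132 comparison. Both comparisons share the parental table, so their values stand side by side and are not independent.

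*EEF1A1* had a level of 8789 in CRISPR and 7197 in parental cells, a log2 ratio of 0.29 (0.27 to 0.31 over the settings) that exceeded 77.5% of genes. *EEF2* had 2126 in CRISPR and 1914 in parental cells (log2 ratio 0.15, 0.15 to 0.17 over the settings). These are the members with most depth.

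*EEF1B2* was at 429.3 in CRISPR and 309.3 in parental cells, and *EEF1G* at 762.7 and 563.7, with log2 ratios of 0.47 and 0.44. The ratio of *EEF1G* held at 0.42 in the first and 0.45 in the last 100 coding bins, while that of *EEF1B2* was 0.23 in the first and 0.69 in the last 100. *EEF1D* was level between the tables, with 347.4 in CRISPR and 339.7 in parental cells (log2 ratio 0.03). So the subunit that differed from its partners after AZC + MG132 also stood apart from them here. Its own level was near the parental value, while theirs were higher. Relative to *EEF1B2*, the depth of *EEF1D* was 0.809 in CRISPR against 1.10 in parental cells.

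*EIF5A* had 533.8 in CRISPR and 500.4 in parental cells (log2 ratio 0.09), but 0.34 over the first and -0.12 over the last 100 coding bins, so no direction can be given. *GSPT1* was close to its parental level, at 183.97 in CRISPR and 172.72 in parental cells (log2 ratio 0.09). *ETF1* had 94.5 in CRISPR and 111.5 in parental cells, and *ABCE1* 88.5 and 104.8, each with a log2 ratio of -0.24. For both, the ratio was -0.33 over the first 100 coding bins and -0.15 over the last 100. With a single table per condition, whether ratios of this size exceed the spread between libraries cannot be told.

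When the CRISPR table was set against the AZC + MG132 table, 2 of 9 members passed 2-fold, against 7.76% of 7219 genes (4.60% higher and 3.16% lower in CRISPR cells). The level was higher in CRISPR cells for 7 members and lower for 2, against 51.2% and 48.8% of all genes. *EEF1B2* was at 429.3 in CRISPR and 203.1 in AZC + MG132 cells (log2 ratio 1.08), and *EEF1G* at 762.7 and 359.1 (log2 ratio 1.09). In the first 100 coding bins alone these ratios were 0.81 and 0.83, under the limit, and in the last 100 they were 1.37 and 1.26. *EEF1D* had a log2 ratio of -0.39 and *EIF5A* of -0.25. *ETF1* was the member that differed least, at 94.5 in CRISPR and 93.3 in AZC + MG132 cells.

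Ribosome positions along the messengers were compared by the 5′ share, which divides the mean depth in the first 20 coding bins by the gene's mean over its 200 coding bins. A 5′ shift compares the shares of 2 tables as a log2 ratio. The median gene had a 5′ share of 0.960 in CRISPR, 1.42 in AZC + MG132 and 0.932 in parental cells. The shift of AZC + MG132 over parental cells was above 0 for all 8 members that gave a value, with a median of 0.60, against 79.2% of 7065 genes, whose median was also 0.60. On the rows with most covered coding bins it was above 0 for 9 of 9 members, with a median of 0.56, against 79.2% of 7008 genes. On the deepest rows the members' median thus equalled that of all genes. *EEF2* and *ETF1* were the 2 members past a shift of 1, as were 31.01% of all genes in either direction.

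*EEF2* had a 5′ share of 2.35 in AZC + MG132 and 1.07 in parental cells (5′ shift 1.13), and its share in CRISPR cells was 1.15. Bin 1 was the highest of its 200 coding bins in all 3 tables and held 4.82% of its coding depth in AZC + MG132, 2.02% in CRISPR and 1.57% in parental cells. The excess was not limited to the first bins, since the shift over bins 6 to 20 was still 0.82. In bins 21 to 40 the scaled depth of *EEF2* was 0.933 in AZC + MG132 against 0.936 in parental cells. *EEF1A1* had bin 2 as its highest bin in each table, with 2.41% of its coding depth in AZC + MG132, 1.74% in CRISPR and 1.33% in parental cells. Its 5′ shift after AZC + MG132 was 0.64, near that of the median gene.

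In *EEF1G* the excess reached over more coding bins than in *EEF2*. Bins are fractions of the coding sequence, so this is not a distance in bases. Its scaled depth in bins 1 to 20 was 1.16 in AZC + MG132 and 0.620 in parental cells, and in bins 21 to 40 it was 1.07 and 0.567. In the 9th of 10 such windows it was 0.876 and 1.09. The highest bin of *EEF1G* lay 15% along its coding sequence in AZC + MG132, 92% along in CRISPR and 73% along in parental cells. The lower level of *EEF1G* after AZC + MG132 was thus spread unevenly, even relative to the table's own depth in the same bins, at a log2 ratio of -0.41 over the first 100 and -0.80 over the last 100 coding bins.

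*EEF1B2* had 5′ shares of 1.81 in AZC + MG132 and 1.43 in parental cells (shift 0.35), but 1.11 in CRISPR cells. Of the members that gave a shift on their deepest row, it alone had a lower share in CRISPR than in parental cells (shift -0.36). *ETF1* had the largest 5′ shift, 1.47, from a share of 1.94 in AZC + MG132 against 0.698 in parental cells, and 1.15 in CRISPR cells. Both shifts depended on the window: over the first 10, the first 40 and bins 6 to 20 that of *ETF1* was 1.06, 0.91 and 1.75, and that of *EEF2* 1.40, 0.71 and 0.82. The bin-by-bin correlation of the AZC + MG132 and parental profiles of *ETF1* was 0.28 (Pearson's r over 200 bins of 1 transcript, a description), against 0.77 for *EEF1A1* and 0.68 for *EEF2*. *ABCE1* had shares of 1.88 in AZC + MG132 and 1.27 in parental cells (shift 0.56), and 1.47 in CRISPR cells.

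**Figure D3:**
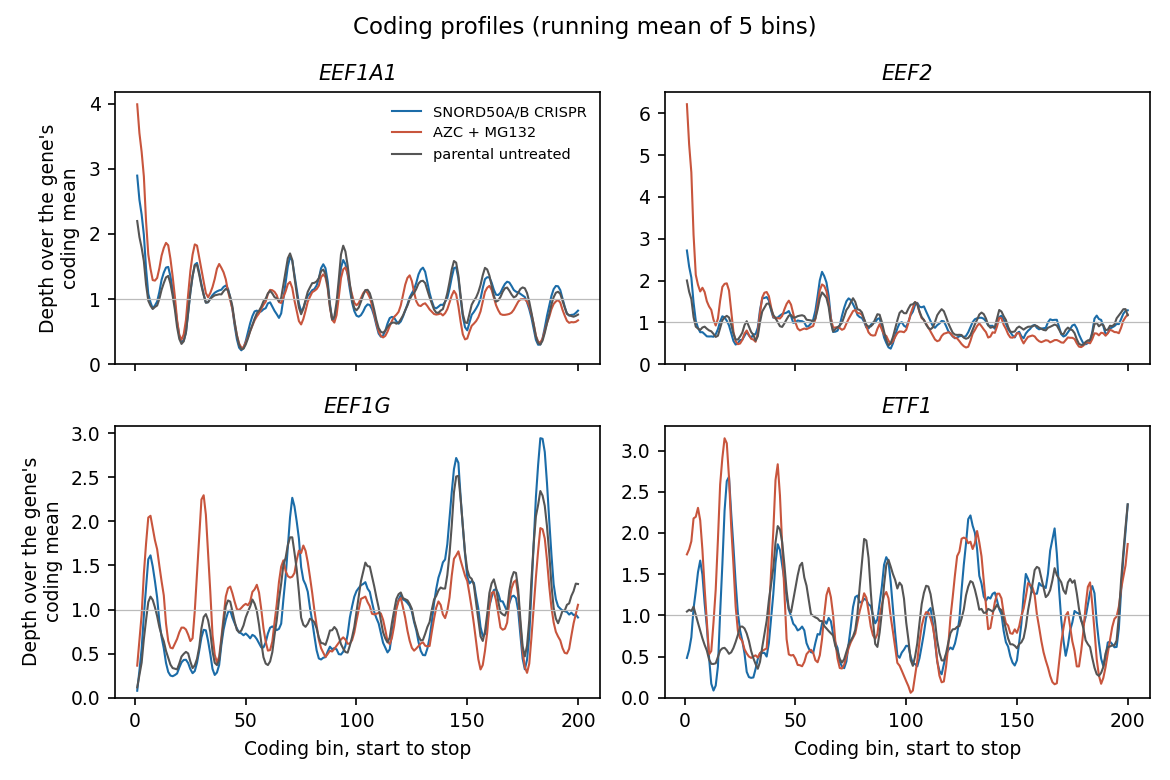
Coding depth over the gene's coding mean (running mean of 5 bins) from start to stop codon in the SNORD50A/B CRISPR, AZC + MG132 and parental tables, for *EEF1A1*, *EEF2*, *EEF1G* and *ETF1*. The AZC + MG132 line is highest at the start in *EEF1A1* and *EEF2* and over the first 40 bins in *EEF1G*, while the peaks of *ETF1* lie at different places in each table.

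In windows of 20 coding bins the ratio of AZC + MG132 over parental cells fell along the first 8 windows in the medians of the members and of all genes. Over parental cells, the median ratio of the 9 members was 1.47 in bins 1 to 20, 1.25 in bins 21 to 40, 1.04 in bins 41 to 60 and 0.735 in the 8th window. Over all genes the medians were 1.52, 1.2, 1.05 and 0.845 in the same windows. In bins 1 to 20 all 9 members were above 1, and in the 9th window 0 of 9 were. A ratio above 1 in bins 1 to 20 is a 5′ shift above 0, which 79.2% of 7065 genes had. For the 9th window the median of all genes was 0.831, and the share of genes above 1 was not computed. For *EEF1D* and *EIF5A* the windows were taken on the shorter coding forms described below, and for the others on the deepest row. In the 10th window the medians were 0.902 for the members and 0.848 for all genes. There *ABCE1*, *ETF1* and *GSPT1* had ratios of 1.41, 1.18 and 1.003, and the 6 elongation factors between 0.75 and 0.91.

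In CRISPR over parental cells the medians stayed between 0.881 and 1.16 for the members and between 0.969 and 1.07 for all genes. The 5′ shift was above 0 for 7 of 8 members, with a median of 0.21, against 56% of 7054 genes with a median of 0.10. Over bins 6 to 20 it was above 0 for 4 of 8, with a median of 0.04, against 53.1% of 6836 genes with a median of 0.06. On the rows with most covered coding bins it was above 0 for 7 of 9, against 56% of 7029 genes. There *EEF1D*, at 0.76 on its deepest row, was at 0.11. *ETF1* again had a shift of some size, 0.72. The widest departure in a window belonged to *ABCE1* in bins 61 to 80, where the scaled depth was 0.120 in CRISPR, 0.513 in AZC + MG132 and 0.909 in parental cells. *ABCE1* had depth in 86.5% of its coding bins in CRISPR, 96.5% in AZC + MG132 and 99.5% in parental cells, so this window is part of a gapped profile. Between CRISPR and AZC + MG132 cells the 5′ shift was below 0 for 6 of 8 members and above 0 for *EEF1D* and *GSPT1*, against 26.2% of 6790 genes above 0. On the rows with most covered coding bins, a choice made after seeing the data, it was below 0 for 8 of 9 and above 0 for *EIF5A*, against 26.3% of 6738 genes above 0.

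**Figure D4:**
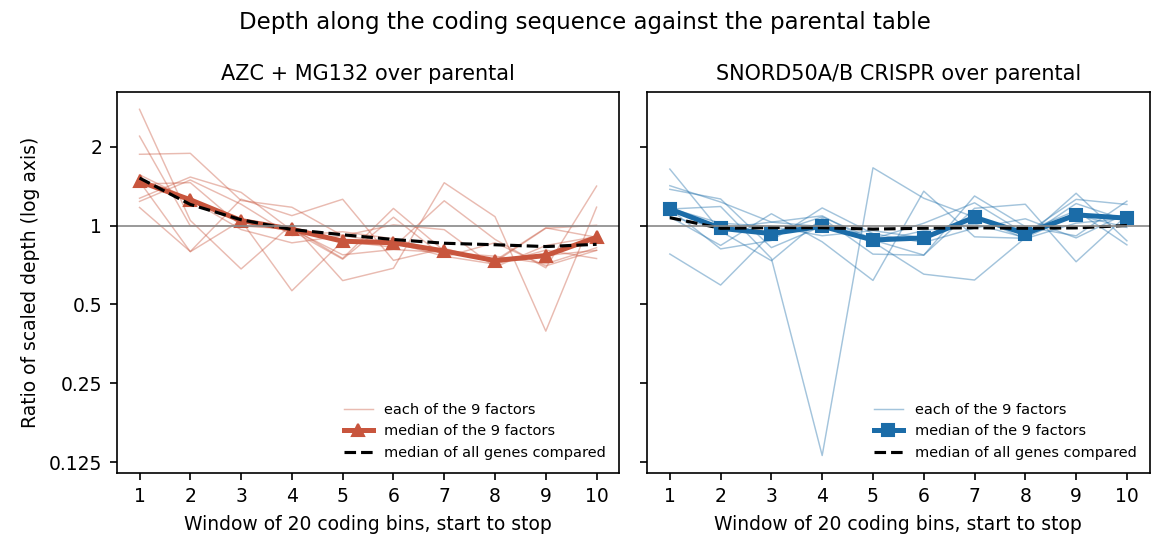
Ratio of scaled coding depth over the parental table (log axis) in 10 windows of 20 coding bins, for AZC + MG132 (left) and SNORD50A/B CRISPR (right). Thin lines are the 9 factors, thick lines their median and dashed lines the median of all genes. *EEF1D* and *EIF5A* are shown on shorter coding forms and the others on their deepest row. On the left the medians of the factors and of all genes fall to 0.735 and 0.845 in the 8th window, on the right they stay near 1, and the dip to 0.133 is *ABCE1*.

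Isoforms decided what could be read in 3 members. The deepest *EEF1D* row is a long coding form (NM_032378), in which the first 55.5% of the coding bins held 2.07% of its coding depth in CRISPR, 3.03% in AZC + MG132 and 2.05% in parental cells. Beyond that point the mean depth per bin was 59.1, 39.9 and 59.5 times that of the bins before. The footprints thus lay almost all in the part shared with the shorter *EEF1D* form (NM_001960), which had depth in all 200 coding bins. On that shorter form the level was 440.6 in AZC + MG132 and 331.6 in parental cells, the 5′ share was 2.13 and 1.48, and the 5′ shift was 0.53. The part before the step had a level of 13.8 in AZC + MG132, 7.17 in CRISPR and 6.98 in parental cells.

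*EIF5A* showed the same on a smaller scale. On its deepest row (NM_001143760), the first 25 coding bins had a depth of 0 in CRISPR and in AZC + MG132 and of 19 in parental cells, so no 5′ share was computed there. On a shorter coding form (NM_001143762) the 5′ share was 2.71 in CRISPR, 2.36 in AZC + MG132 and 1.91 in parental cells. This was the largest 5′ share of the 9 members in each table, although in AZC + MG132 *EEF2*, at 2.35, was about level with it. Its 5′ shift was 0.31 for AZC + MG132 and 0.51 for CRISPR over parental cells. *GSPT1* gave opposite signs on its 2 forms in CRISPR cells, with a 5′ shift of 0.46 on the longer (NM_002094) and -0.37 on the shorter (NM_001130007), so no direction is given for it. After AZC + MG132 its shift was 0.23 on the longer and 0.37 on the shorter form.

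Depth in the 5′ UTR, taken as a percent of the coding depth of the same row, was higher in AZC + MG132 than in parental cells for 9 of 9 members, against 83.1% of 7092 genes. On the rows with most covered coding bins it was higher for 6 of 9. It was lower for *EEF1B2*, *GSPT1* and *EIF5A*, the last depending on the form as given below. The share over all genes was not computed on those rows. *EEF2* had 14.7% in AZC + MG132, 5.88% in CRISPR and 4.46% in parental cells. *ETF1* had 22%, 14.6% and 10.2%, and *EEF1A1* 18.97%, 13.3% and 10.98% in the same order. *EEF1G* had almost no 5′ UTR depth in any table, 0.70% in AZC + MG132, 0.24% in CRISPR and 0.03% in parental cells. A 5′ UTR shorter than its 100 bins may be counted more than 1 time per base, so these percents are compared between tables only.

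Of the CRISPR and parental tables, the 5′ UTR percent was higher in CRISPR cells for 8 of 9 members, against 54% of 7230 genes. It was higher for 6 of 9 on the rows with most covered coding bins, where no share over all genes was computed. *ABCE1* had 9.14% in CRISPR and 4.24% in parental cells, and *EEF1B2* was lower, with 7.72% and 9.30%. *EIF5A* depends on the row: its deepest row had 33.5% in CRISPR, 31.5% in AZC + MG132 and 25.3% in parental cells. The shorter form used above had 3.22%, 3.62% and 4.09% in the same order. Another form with all coding bins covered had 6.50%, 8.88% and 6.06%, so no direction is given for *EIF5A*. Depth in the 3′ UTR was at most 3.12% of coding depth in any member and table. It was higher in AZC + MG132 than in parental cells for 7 of 9 members, against 65.5% of 6933 genes, and in CRISPR than in parental cells for 8 of 9, against 51.7% of 7043 genes. Between CRISPR and AZC + MG132 cells it was higher in CRISPR for 4 of 9, against 36.6% of 6735 genes, and the 5′ UTR percent was higher in CRISPR for 2 of 9, against 20.6% of 6989 genes. The 3′ UTR of *EEF1A1* had 1.61% of its coding depth in AZC + MG132, 0.57% in CRISPR and 0.54% in parental cells.

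**Figure D5:**
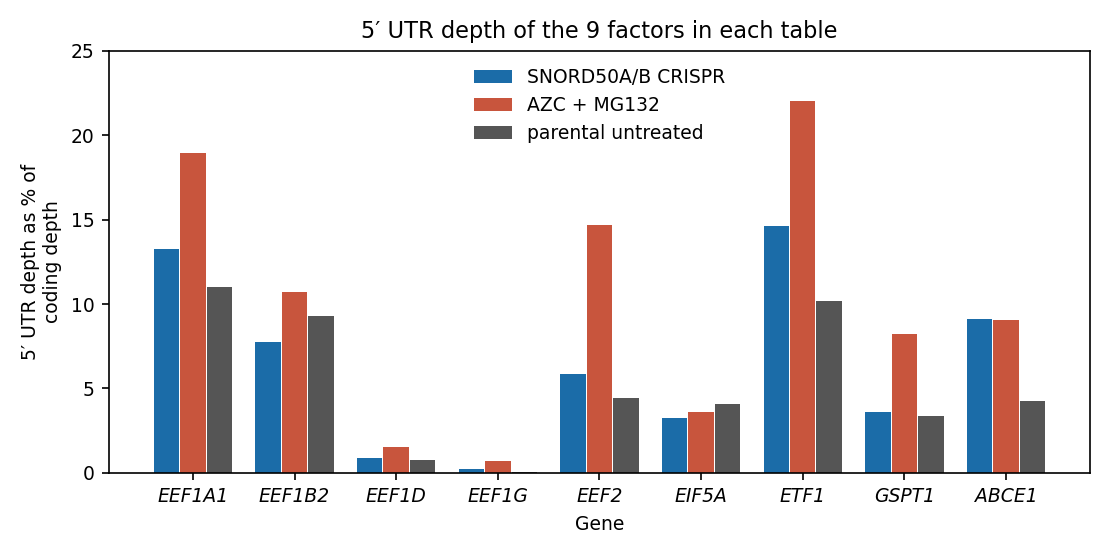
5′ UTR depth as a percent of coding depth for each factor in the SNORD50A/B CRISPR, AZC + MG132 and parental tables. *EIF5A* is shown on a shorter form (NM_001143762) and the others on their deepest row. Another form of *EIF5A* has a different order of tables. The AZC + MG132 bar is the highest in *EEF1A1*, *EEF1B2*, *EEF1D*, *EEF1G*, *EEF2*, *ETF1* and *GSPT1*.

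Of 47 listed genes around these factors, 0 of 32 compared for AZC + MG132 and 0 of 35 compared for CRISPR passed 2-fold against parental cells, near the 4.15% and 3.17% of all genes given above. Between CRISPR and AZC + MG132 cells 34 of the 47 were compared. Of these 1 was past 2-fold higher in CRISPR and 2 lower, against 4.6% and 3.16% of all genes. Among 6 paralogs and partners, 3 were higher and 3 lower after AZC + MG132, and 4 higher and 2 lower in CRISPR cells. Of 10 enzymes that modify the factors, 6 were higher and 4 lower after AZC + MG132. METTL13, which methylates eEF1A, was at 57.5 in AZC + MG132 and 43.3 in parental cells, and DHPS, which starts hypusine formation on eIF5A, at 19.7 and 18.5. DPH1 and DPH2, both needed for diphthamide on eEF2, moved in opposite directions: DPH2 was at 9.84 in CRISPR and 26.2 in AZC + MG132 cells, DPH1 at 14.2 and 7.04, and both pairs were past 2-fold. DPH2 stayed past it under the settings tried, while the log2 ratio of DPH1, 1.01, was as low as 0.48 and so fell under it.

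Of 9 ribosome rescue, recycling and specialised elongation genes compared, 4 were higher and 5 lower after AZC + MG132. NEMF, which marks stalled chains on the large subunit, was at 65.7 in AZC + MG132 and 60.5 in parental cells, and GTPBP1, a GTPase related to elongation factors, at 63.5 and 51.5. In mitochondria, TUFM, which delivers tRNA, had a log2 ratio of -0.06 and GFM1, which moves the ribosome, of 0.04. TSFM, the exchange factor for TUFM, was past 2-fold between the other tables, at 23.5 in CRISPR and 48.2 in AZC + MG132 cells (log2 ratio -1.04), but its ratio reached -0.87 under another setting, short of 2-fold.

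Set beside other parts of the translation machinery, the members' median log2 ratio after AZC + MG132 (-0.29) lay near that of 79 cytosolic ribosomal proteins (-0.23, with 63 lower and 16 higher) and below that of 44 initiation factors (0.03, with 20 lower and 24 higher). In CRISPR over parental cells the medians were 0.09 for the members, 0.05 for the ribosomal proteins and 0.03 for 45 initiation factors. Among the 200 genes with most depth, *RPL6*, *RPL3* and *RPS10* were closest to *EEF1A1* in their pair of ratios over parental cells, at distances of 0.068, 0.085 and 0.115 on the log2 scale. *RACK1*, *LDHA* and *RPL21* were closest to *EEF2*, at 0.055, 0.061 and 0.074. Likeness over 2 ratios is a weak description. *TPT1* and *PABPC1*, TOP messengers outside the group, had log2 ratios of -1.53 and -2.56 after AZC + MG132, beyond any of the 9 factors, and *ACTB* and *GAPDH* had 0.04 and -0.15.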

How the data were processed

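CHL-1 libraries followed a published ribosome profiling protocol, per the labels' protocols. The submitters' processing notes name Bowtie2, TopHat2 and hg19, without versions. The sources used here do not say how the 2 libraries of a condition entered its table. Values were deposited as log2(x + 1) with 2 decimals, x being depth summed over the bases of a bin, in 400 bins per transcript; the values show 100 bins of 5′ UTR, then 200 coding and 100 of 3′ UTR. The file headers number the bins and name no unit.

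In coding bins the value of the row above, which the deposited numbers also contain, was subtracted; after that 99.9996%, 99.9998% and 99.9997% of low coding bins (log2 under 4) were whole in the CRISPR, AZC + MG132 and parental tables. The last 3 rows, summaries over transcripts, were left out. Names came from the RefSeq table of GRCh38.p14. A gene is its NM row with most depth over the 3 tables. Genes had to exceed the 0.25 quantile of row sums in both tables (3697 in CRISPR, 2614 in AZC + MG132, 3187 in parental). Log2 ratios used a pseudocount of 0.5 on summed depth, so they slightly understate changes of low genes. Depth counts bases, so no counting interval could be given. The measures were tested on simulated tables with python 3.11.15, numpy 2.4.6 and pandas 2.3.3. Those tables were written in the form assumed here, so they do not test how the deposited values were read.

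The named genes are the 9 members, related genes past 2-fold or the 2 highest of their class, the 3 nearest to *EEF1A1* and to *EEF2*, and 4 points of reference. The members and lists were chosen with earlier results of these data known. Protein sequences were not used here.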

Additional observations from a re-analysis of the deposited data

How the results depend on the processing

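The members' level ratios, 5′ shifts, their medians and the count past 2-fold were recomputed with other denominators (median ratio, the most abundant 1% of rows left out), other bins (all 400, the first or last 100 coding bins, without the first and last 20, without the 5 highest), values as deposited, all rows of a gene summed, a pseudocount of 5, no minimum or a minimum 4 times higher and, chosen after seeing the data, the row with most covered coding bins. The 5′ window was also set to 10, 40 and bins 6 to 20. UTR percents were recomputed only on the row with most covered coding bins, and window ratios, start classes, nearest genes and profile correlations under no other setting. The medians kept their sign and stayed within 0.25 (log2) of the value reported, the limit used here because no replicate spread exists. The count of members past 2-fold changed in 1 case: in the first 100 coding bins it was 0 of 9 for CRISPR over AZC + MG132. Of single values, 6 level ratios and 40 5′ shifts moved by more than that limit or crossed a log2 value of 1 in size, the shifts mostly in *EEF1D*, *GSPT1*, *ETF1* and *EEF2*; the cause was not tested. No paired analysis was possible because the tables pool the libraries and the labels give no shared replicate numbers, and for the same reason no replicate could be left out. Depth does not limit *EEF1A1* or *EEF2*; gaps limit *ABCE1* in the CRISPR table.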
